A study of Sorghum bicolor with 24 samples.

Results

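Roots of sorghum (Sorghum bicolor) labelled phosphorus deficiency were sequenced on day 7 and on day 4, with 3 libraries at each time, and the 6 libraries were 6 of the 24 in the series. They were chosen by their labels alone, and every gene in the table was considered. Roots labelled mock, sampled on the same days with 3 libraries each, served to show where the change with time differed between the conditions. The remaining 12 libraries carry other labels and times and were not used here. The labels give the tissue as roots and name no cultivar, plant age, growth medium, phosphate level or pooling, and they do not say whether the 3 libraries of a group came from separate plants. The p-values therefore measure the spread between these libraries, which may be technical. In bulk tissue, fewer cells of a type and less RNA per cell cannot be told apart.

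Phosphate starvation in plants is known to act through SPX domain proteins, which sense the phosphate status of the cell, and through transporters, phosphatases and lipid enzymes that gain or recycle phosphate. The genes of iron uptake, of nitrate transport and of phenolic metabolism are known to be adjusted in the same roots. Grasses take up iron mainly as a chelate with phytosiderophores, and rice also imports ferrous iron through transporters of the IRT type. A circadian clock, built from morning genes such as CCA1 and evening genes such as PRR1 (TOC1 in Arabidopsis), runs in roots as in shoots.

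Total RNA of each sample was made into an mRNA library, and reads were counted for 35907 genes. The 6 libraries held 33354679 to 41749794 counts, and the 6 mock libraries 32631226 to 45292506. Levels are given as CPM, counts scaled to a common library size with the TMM factors of edgeR, which compare a gene between libraries and not one gene with another. Between replicates of a group, log2 CPM correlated at 0.988 to 0.993 on day 7 and at 0.981 to 0.988 on day 4. On a principal component analysis of log2 CPM, the axis with 9.65% of the variance separated the libraries of day 7, at -31.1 to -22.0, from those of day 4, at 11.8 to 36.7. Replicate 1 of day 4 lay at the far end of that axis. The axis with 70.7% of the variance separated the conditions, at 50.6 to 77.8 for P deficiency and -70.8 to -54.3 for mock. A further axis held 5.28% of the variance. There replicate 1 of mock day 7 stood apart at -39.0, against 13.7 and 16.2 for the other 2 of its group. Replicate 1 of P deficiency day 4 was also apart there, at -12.9, against 20.4 and 27.2 for replicates 2 and 3. Summed levels of 16 genes for chlorophyll a-b binding proteins and the small chain of RuBisCO, markers of green tissue, were 15.3 to 19.1 CPM on day 7 and 11.6 to 13.3 CPM on day 4. These ranges do not overlap, no member passed the test, and their part in the results below was not tested. The 4 Casparian strip membrane proteins, which mark the endodermis of roots, summed to 77.0 to 95.2 CPM on day 7 and 54.4 to 89.7 CPM on day 4. The label of the treatment is in doubt. SPX domain-containing protein 1 (Sobic.004G084900) belongs to a family that low phosphate raises in other plants, and it stood at 1.57, 1.55 and 1.52 CPM on day 7 and 2.27, 2.48 and 1.86 CPM on day 4 in roots labelled P deficiency, against 262, 258 and 243 CPM on day 7 and 242, 264 and 259 CPM on day 4 in roots labelled mock. Inorganic phosphate transporter 1-2 (Sobic.001G502000) was likewise lower in the roots labelled P deficiency, with 162 ± 51.8 CPM on day 7 and 60.9 ± 10.6 CPM on day 4 (SD, n = 3 each), against 1713 ± 729 and 1901 ± 429 CPM in mock. Summed phosphate lists, over both days, were also lower in roots labelled P deficiency than in mock. For SPX domain proteins they were 97.0 to 110 against 2648 to 3561 CPM. Phosphate transporters had 524 to 855 against 3279 to 4742 CPM. Purple acid phosphatases had 1213 to 1827 against 4816 to 5673 CPM. Genes of membrane lipid remodelling had 1845 to 2229 against 8333 to 10380 CPM. Strigolactone genes went the other way, with 870 to 998 against 682 to 759 CPM. Whether the labels of the conditions were exchanged cannot be told from these data, and all directions below follow the deposited labels.

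Between day 7 and day 4, 1103 of 25137 genes tested passed an adjusted p of 0.05 (edgeR's quasi-likelihood test, adjusted by Benjamini-Hochberg over every gene in the fit) in the libraries labelled P deficiency, which is 4.39% of them. Of these, 548 were higher on day 7 (2.18%) and 555 were lower (2.21%). Among the calls, 119 genes were at least 4-fold higher and 72 at least 4-fold lower. The median size of the change over the called genes was 1.14 on the log2 scale. With libraries scaled by total counts only, the split was 469 higher and 748 lower, or 38.5% higher in place of 49.7%. The count moved by over 1.5 times without replicate 2 of day 4 (596 genes), replicate 1 of day 7 (621), replicate 2 of day 7 (669) or replicate 1 of day 4 (732), each in a fit with fewer samples. The genes called comprised 885 with a description and 218 without one. Of the 1103 genes 1097 had no library of day 7 within the range of day 4. The same holds for every gene with a called change described below, and for the largest changes it was a condition for being named. The share of all genes tested without such overlap is not given here. Genes that pass the test tend to separate in this way, so the number adds no support to the calls. An interaction term asked whether the change with time differed between P deficiency and mock, and it was called for 117 genes, 0.465% of those tested. Mean and SD below are over 3 libraries, and a fold is the ratio of mean CPM. The fitted log2 fold change of day 7 over day 4 is written log2FC, with its standard error after ± and the p adjusted over all genes.

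Of 42 gene lists, defined by words in the descriptions, the shares of called members among those with at least 10 members tested ran from 0 of 80 for cyclins and DNA replication to 6 of 17 for the clock. Members of any list numbered 2727 among the genes tested, and 224 of them were called, or 8.21%, against 4.39% of all genes. That number was 122 without replicate 2 of day 4, 137 and 142 without replicates 1 and 2 of day 7, and 147 without replicate 1 of day 4. The lists were written with earlier results of these data known, so these shares are descriptions. Higher and lower members stood side by side in the lists for iron, wall synthesis and nitrate. In the lists for WRKY factors and glutathione S-transferases every called member was lower on day 7, and in those for flavonoids and glycosyltransferases 14 of 16 and 18 of 24 were.

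**Figure D1:**
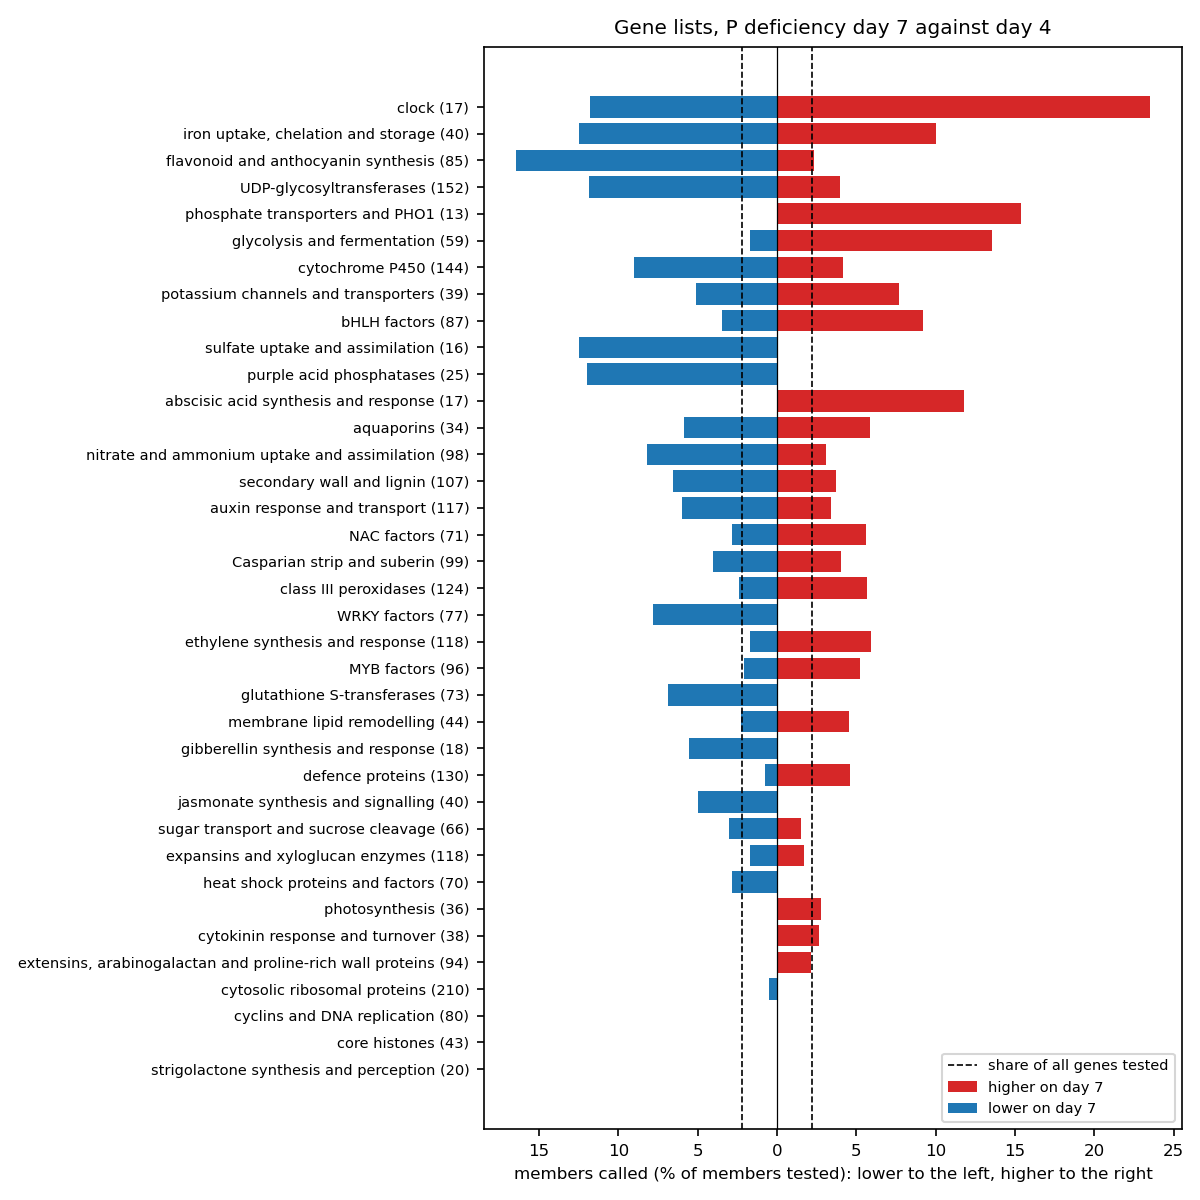
Share of the tested members of each gene list called higher (right, red) or lower (left, blue) on day 7 against day 4 in roots labelled P deficiency, in percent of members tested, for the 37 lists with at least 10 tested members (number in brackets). Dashed lines mark the 2.18% and 2.21% of all genes tested that were called higher and lower, and the clock, iron and flavonoid lists have the largest shares called in both directions together.

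Several genes of iron uptake rose and several of iron storage fell between the days. In the list for iron uptake, chelation and storage, 4 of 40 tested members were higher on day 7 and 5 were lower, against 2.18% and 2.21% of all genes, with a median log2 fold change of -0.05 against -0.01 over all genes. The higher members were 2 Fe(2+) transport proteins, which import ferrous iron, and the metal-nicotianamine transporters YSL9 and YSL16. The lower members were 3 vacuolar iron transporters, which store iron in the vacuole, ferritin-1, which stores it in plastids, and nicotianamine synthase 3, which makes a metal chelator. With each of the 12 libraries left out in turn, 7 to 10 members were called. In roots labelled mock none of the 40 members rose and 1 fell, and the interaction was called for 4.

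Fe(2+) transport protein 2 (Sobic.001G156800) had 134, 113 and 148 CPM on day 7, against 11.1, 13.0 and 6.15 CPM on day 4. Every day 7 library of P deficiency also exceeded every mock library. It was 13.1-fold higher on day 7 by the ratio of means (log2FC 3.71 ± 0.27, adjusted p = 6.6e-06). In mock roots the same gene had 15.5, 19.2 and 26.97 CPM on day 7, against 15.5, 15.1 and 12.5 CPM on day 4, and the change with time differed between the conditions (interaction adjusted p = 0.0019). A second gene of that description, Sobic.001G142900, which was chosen after its values were seen, was more abundant, with 1066, 866 and 932 CPM on day 7, against 357, 239 and 149 CPM on day 4 (log2FC 1.94 ± 0.36, adjusted p = 0.0069). Per length, it reached 650.2 ± 60.3 FPKM on day 7, against 177 ± 72.9 FPKM on day 4 (SD, n = 3 each), and was the most abundant of the 3 Fe(2+) transport genes named here. Its neighbour by identifier, Fe(2+) transport protein 1 (Sobic.001G142800), chosen after its values were seen, had 190.2, 171 and 128 CPM on day 7, against 197, 207 and 179 CPM on day 4. That difference did not pass the test (log2FC -0.25 ± 0.18, adjusted p = 0.57). In mock roots Fe(2+) transport protein 1 fell, with 12.4, 10.3 and 16.2 CPM on day 7, against 79.8, 58.4 and 67.3 CPM on day 4 (log2FC -2.40 ± 0.19, adjusted p = 0.00011). The interaction was called (interaction adjusted p = 0.0029). The sources used here do not say how reads shared by such similar copies were counted.

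The storage genes moved the other way. Vacuolar iron transporter 1.2 (Sobic.002G194600) had 18.2, 13.8 and 16.8 CPM on day 7, against 119, 175 and 163 CPM on day 4 (log2FC -3.23 ± 0.27, adjusted p = 1.6e-05). Its mock levels were 11.8, 24.6 and 23.5 CPM on day 7, against 21.4, 16.1 and 23.0 CPM on day 4, about the level reached on day 7 in roots labelled P deficiency (interaction adjusted p = 0.0019). Its relatives, vacuolar iron transporter homologs 5 and 2 (Sobic.006G276300 and Sobic.006G161800), were 3.98-fold and 4.59-fold lower on day 7 (adjusted p = 9.3e-05 and 0.00040). Ferritin-1 (Sobic.008G004800) had 9.03, 9.15 and 7.44 CPM on day 7, against 17.1, 16.4 and 21.3 CPM on day 4 (log2FC -1.10 ± 0.17, adjusted p = 0.0026). The homologs and ferritin-1 were chosen after their values were seen.

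The smallest interaction p of all genes belonged to a gene described as zinc finger protein BRUTUS (Sobic.009G222200), whose relatives in Arabidopsis and rice are ubiquitin ligases that restrain the iron deficiency response. BRUTUS had 311, 249 and 289 CPM on day 7, against 37.6, 36.3 and 32.7 CPM on day 4, 7.97 times the level (log2FC 2.99 ± 0.14, adjusted p = 3.3e-07). In mock roots BRUTUS had 38.2, 35.9 and 37.7 CPM on day 7, against 39.5, 51.2 and 38.9 CPM on day 4, a difference that did not pass the test (adjusted p = 0.60), and the changes differed by 3.21 on the log2 scale (interaction adjusted p = 6.0e-06). Oligopeptide transporter 3 (Sobic.001G087700), which loads iron into the phloem in Arabidopsis, had 743, 687 and 672 CPM on day 7, against 82.2, 72.3 and 71.8 CPM on day 4 (log2FC 3.22 ± 0.16, adjusted p = 3.7e-07). Its mock level was 159.8, 148 and 140.1 CPM on day 7, against 106, 136 and 88.5 CPM on day 4 (interaction adjusted p = 7.3e-05). Both genes stood near the mock level on day 4 and apart from it on day 7.

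Regulators of iron uptake, all but one chosen after their values were seen, moved in both directions. A factor described as bHLH101-like (Sobic.003G428800), which the authors' Swiss-Prot match names iron-related transcription factor 2, an activator of iron uptake in rice, had 3482, 2957 and 2189 CPM on day 7, against 1249, 831 and 939.8 CPM on day 4 (log2FC 1.51 ± 0.26, adjusted p = 0.0044). It also rose in mock roots, from a lower level, at 1025 ± 242 CPM on day 7, against 461 ± 132 CPM on day 4 (adjusted p = 0.048). The bHLH47-like gene Sobic.001G355600, matched to iron-related transcription factor 3 and named by the rule, had 218, 186 and 184 CPM on day 7, against 59.96, 41.3 and 41.3 CPM on day 4 (log2FC 2.05 ± 0.19, adjusted p = 3.6e-05). Its mock levels were 54.7 ± 4.60 CPM on day 7, against 36.4 ± 8.09 CPM on day 4 (interaction adjusted p = 0.026), an interaction call that ended in 6 of the 12 fits with 1 library left out. FER-like iron deficiency-induced factor (Sobic.006G047200), the relative of the master regulator FIT of Arabidopsis, had 300.4, 259.9 and 332 CPM on day 7, against 163, 159.6 and 124 CPM on day 4 (log2FC 1.00 ± 0.19, adjusted p = 0.010). The other factors named here fell, namely ILR3 (Sobic.009G160000, log2FC -0.77 ± 0.13, adjusted p = 0.0043), bHLH47 (Sobic.002G385300, log2FC -1.06 ± 0.17, adjusted p = 0.0027) and bHLH11 (Sobic.005G177800, log2FC -1.002 ± 0.17, adjusted p = 0.0042). In Arabidopsis, ILR3 takes part in both activation and repression of iron genes, and bHLH11 is a repressor of them.

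Of 6 tested metal transporters of the Nramp family 3 were higher on day 7 and none was lower, against 2.18% and 2.21% of all genes. These counts were the same with any 1 library left out. Nramp2 (Sobic.001G462500) had 342, 301 and 397 CPM on day 7, against 104, 109 and 63.6 CPM on day 4 (log2FC 1.91 ± 0.21, adjusted p = 0.00020). Mock roots had 54.3, 45.2 and 71.6 CPM on day 7, against 64.9, 52.9 and 54.3 CPM on day 4 (interaction adjusted p = 0.012). Nramp5 (Sobic.002G095400), whose rice relative imports manganese and cadmium, was 2.05-fold higher (log2FC 1.04 ± 0.18, adjusted p = 0.0042). Nramp1 (Sobic.002G095600) was low, with 7.70 ± 1.56 CPM on day 7, against 1.32 ± 0.165 CPM on day 4 (log2FC 2.55 ± 0.29, adjusted p = 0.00020). The second BRUTUS gene (Sobic.003G262200) was 2.44-fold higher (log2FC 1.29 ± 0.19, adjusted p = 0.0019). Iron-phytosiderophore transporter YSL15 (Sobic.004G299700), which imports the ferric chelate in rice, had 12.9, 7.98 and 10.6 CPM on day 7, against 3.31, 3.93 and 2.02 CPM on day 4 (log2FC 1.76 ± 0.34, adjusted p = 0.0099). This call ended without replicate 1 of day 7 (adjusted p = 0.056). Ferrochelatase-2 (Sobic.004G179400), the enzyme that inserts iron into porphyrin, was 2.25-fold lower (log2FC -1.17 ± 0.19, adjusted p = 0.0031). The multicopper oxidase LPR1 homolog 1 (Sobic.003G088900), whose Arabidopsis relative oxidises iron in phosphate-starved root tips, had 14.1 ± 2.53 CPM on day 7, against 6.58 ± 0.862 CPM on day 4 (log2FC 1.10 ± 0.21, adjusted p = 0.0090). The family and these genes were chosen after their values were seen.

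**Figure D2:**
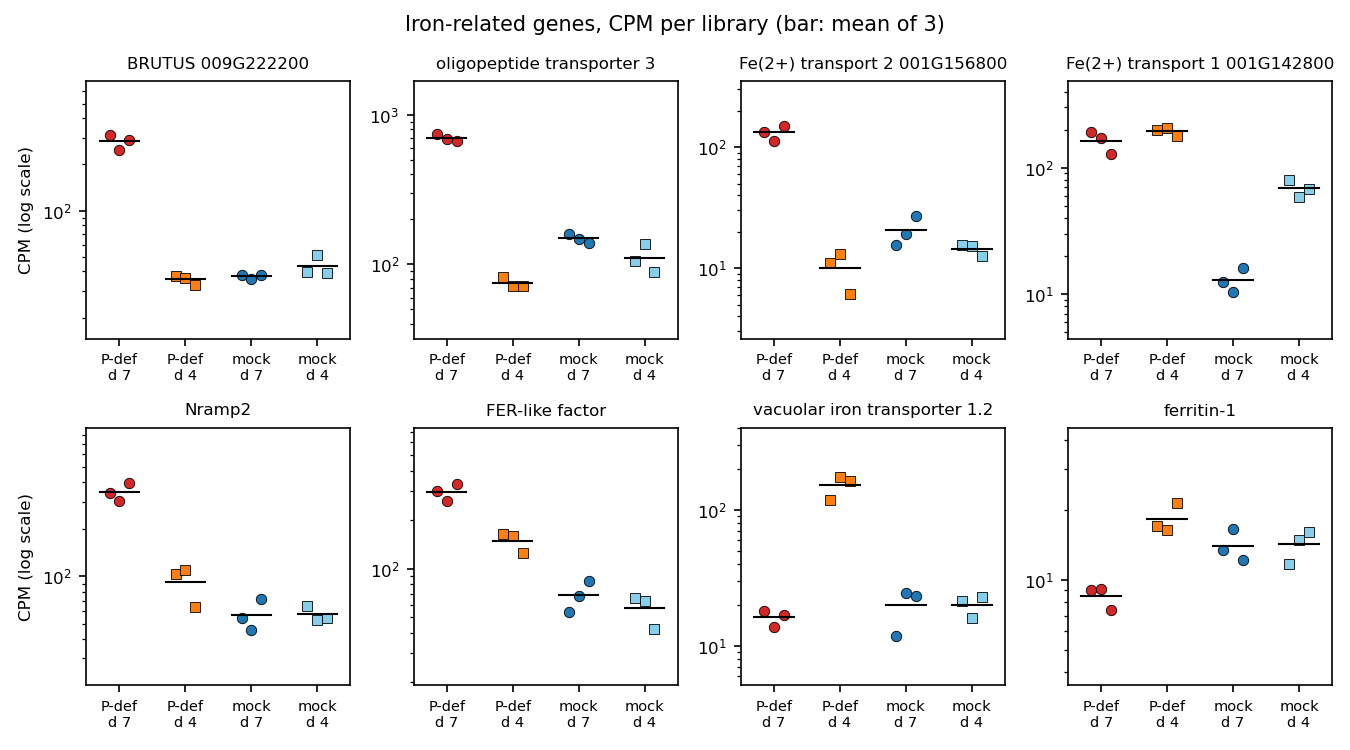
Level of 8 iron-related genes in each library, in CPM on a log axis, for P deficiency on day 7, P deficiency on day 4, mock on day 7 and mock on day 4. Points are libraries and bars are the means of 3. BRUTUS, oligopeptide transporter 3, Fe(2+) transport protein 2 and Nramp2 are highest in every P deficiency library of day 7, vacuolar iron transporter 1.2 is highest in every P deficiency library of day 4, and Fe(2+) transport protein 1 is lowest in mock on day 7.

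Clock and light genes changed with time in both conditions. Of 17 tested genes in the clock list 4 rose and 2 fell in roots labelled P deficiency, against 2.18% and 2.21% of all genes, and 4 to 7 were called with 1 library left out. In mock roots 3 rose and 1 fell, against 1.34% of all genes called. The labels carry no hour of harvest, and its part was not tested. The morning gene CCA1 (Sobic.007G047400), which the words of the list do not take in, had 251, 254 and 235 CPM on day 7, against 22.8, 16.4 and 19.9 CPM on day 4 (log2FC 3.65 ± 0.22, adjusted p = 2.3e-06). Mock roots had 182, 118 and 95.6 CPM on day 7, against 8.98, 6.86 and 7.13 CPM on day 4 (log2FC 4.10 ± 0.23, adjusted p = 4.9e-06). The interaction was not called (interaction adjusted p = 0.77). REVEILLE 2 (Sobic.010G275700), a relative of CCA1, had 17.0, 16.6 and 24.0 CPM on day 7, against 4.68, 4.61 and 3.73 CPM on day 4 (log2FC 2.14 ± 0.21, adjusted p = 6.1e-05). It rose in mock roots too (log2FC 2.28, adjusted p = 0.00034, interaction adjusted p = 0.97). The evening gene PRR1 (Sobic.004G216700) had 52.5, 55.4 and 58.7 CPM on day 7, against 213, 163 and 174 CPM on day 4 (log2FC -1.72 ± 0.12, adjusted p = 4.6e-06). Its fall was larger than in mock roots, where it had 54.6, 49.6 and 50.8 CPM on day 7, against 75.0, 85.2 and 86.2 CPM on day 4 (log2FC -0.67, adjusted p = 0.015, interaction adjusted p = 0.012).

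Further genes of the clock and of light signalling, chosen after their values were seen, changed in either direction. LNK1-like (Sobic.001G352400) and a gene described as response regulator-like PRR95 (Sobic.002G275100), whose relatives in Arabidopsis are expressed in the day, were 2.73-fold and 2.23-fold higher on day 7 (adjusted p = 3.6e-05 and 0.0020). B-box zinc finger proteins 18 and 24 (Sobic.002G273300 and Sobic.004G208400), of a family of light signalling factors, were 3.77-fold and 3.84-fold higher, and they rose in mock roots too (adjusted p = 0.0012 and 0.0012). Of 12 tested B-box genes 4 rose and none fell, against 2.18% and 2.21% of all genes. In mock roots 4 of the 12 rose and none fell as well, and no member passed the interaction test. Among those higher in roots labelled P deficiency was B-box domain protein 31 (Sobic.004G060832), at 13.0 ± 1.89 CPM on day 7, against 3.46 ± 0.469 CPM on day 4 (log2FC 1.91 ± 0.23, adjusted p = 0.00030). REVEILLE 6 (Sobic.004G281800) was 2.06-fold higher (adjusted p = 0.0027). Phytochrome interacting factor-like 13 (Sobic.002G031000), of a family that relays light signals, had 5.55 ± 0.830 CPM on day 7, against 1.04 ± 0.0964 CPM on day 4 (log2FC 2.42 ± 0.23, adjusted p = 6.1e-05). Mock changes of LNK1-like, PRR95, REVEILLE 6 and phytochrome interacting factor-like 13 are not given here. Other genes fell, some of them more in roots labelled P deficiency than in mock roots. A gene for JMJ30 (Sobic.007G210801), a histone demethylase with evening expression in Arabidopsis, had 16.6, 18.4 and 18.6 CPM on day 7, against 95.4, 77.4 and 78.3 CPM on day 4. Mock roots had 27.1, 23.8 and 17.8 CPM on day 7, against 30.8, 37.6 and 36.1 CPM on day 4 (interaction adjusted p = 0.0058). Cold-regulated protein 27 (Sobic.001G480400), a repressor of evening genes in Arabidopsis, had 13.4, 18.2 and 20.2 CPM on day 7, against 86.9, 74.5 and 64.4 CPM on day 4. Mock roots had 21.9, 26.8 and 22.3 CPM on day 7, against 27.6, 27.5 and 32.1 CPM on day 4 (interaction adjusted p = 0.0040). For both, day 4 of P deficiency held the highest values of the 4 groups. The second JMJ30 gene (Sobic.002G247200) and 2 CONSTANS-like 9 genes (Sobic.010G123500 and Sobic.004G256200) fell as well, by 2.96-fold, 3.32-fold and 2.77-fold (adjusted p = 2.4e-05, 3.9e-06 and 0.00027), with interaction adjusted p of 0.065, 0.094 and 0.12, which missed the threshold.

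In the list for glycolysis and fermentation 8 of 59 tested members rose and 1 fell, against 2.18% and 2.21% of all genes, and the median log2 fold change over all 59 was -0.005. The number called was 4 without replicate 2 of day 4 and 5 without replicate 1 of day 7. In mock roots 5 rose and 1 fell. Genes known from the low-oxygen response of other plants are described next, not all of them members of that list. Most of them were chosen after their values were seen. Non-symbiotic hemoglobin (Sobic.001G449600), which scavenges nitric oxide when oxygen is short, had 185, 189 and 219 CPM on day 7, against 108, 103 and 99.3 CPM on day 4 (log2FC 0.93 ± 0.11, adjusted p = 0.00036). Alcohol dehydrogenase 1 (Sobic.005G103500), the last enzyme of ethanol fermentation, had 27.9, 41.8 and 43.2 CPM on day 7, against 13.0, 14.3 and 19.1 CPM on day 4 (log2FC 1.28 ± 0.18, adjusted p = 0.0011). Pyruvate decarboxylase 2 (Sobic.001G405500), the enzyme before it, was 1.64-fold higher, and L-lactate dehydrogenase B (Sobic.004G004500) was 4.66-fold higher (adjusted p = 0.0090 and 0.0011). In mock roots alcohol dehydrogenase 1 rose at higher levels, with 229 ± 23.1 CPM on day 7, against 95.7 ± 7.52 CPM on day 4 (log2FC 1.26, adjusted p = 0.0050, interaction adjusted p = 1.0). Alcohol dehydrogenase 2 (Sobic.005G103300) had 121 ± 22.7 CPM on day 7, against 76.4 ± 5.07 CPM on day 4 (log2FC 0.66 ± 0.14, adjusted p = 0.019). This call ended without replicate 2 of day 4 or of day 7. Pyruvate decarboxylase 2, L-lactate dehydrogenase B and alcohol dehydrogenase 2 were chosen after their values were seen.

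Plant cysteine oxidases, which mark ethylene response factors of group VII for degradation in the presence of oxygen and are themselves raised by low oxygen in Arabidopsis, gave some of the largest rises. Of 9 tested genes of this family, which was picked after its values were seen, 5 were higher on day 7 and none was lower. This compares with 2.18% and 2.21% of all genes, and the counts were the same with any 1 library left out. In mock roots 3 of the 9 were higher and none was lower. Sobic.001G149800 had 21.9, 29.2 and 30.9 CPM on day 7, against 1.12, 0.955 and 1.68 CPM on day 4 (log2FC 4.45 ± 0.32, adjusted p = 5.5e-06). Mock roots had 39.1, 59.8 and 76.1 CPM on day 7, against 27.6, 15.9 and 19.2 CPM on day 4, a smaller rise from a higher level (interaction adjusted p = 0.0058). Sobic.003G037600 had 19.6, 27.6 and 23.0 CPM on day 7, against 1.70, 1.73 and 2.35 CPM on day 4 (log2FC 3.60 ± 0.27, adjusted p = 7.0e-06). Its mock levels were 56.9 ± 10.1 CPM on day 7, against 20.4 ± 7.33 CPM on day 4, and the interaction was called (adjusted p = 0.015), as it was with each library left out. The abundant Sobic.008G177800 and Sobic.009G255500 were 3.37-fold and 2.38-fold higher, at 129.6 ± 24.2 and 135 ± 22.8 CPM on day 7 (adjusted p = 0.00010 and 0.00045). Plant cysteine oxidase 1 (Sobic.002G234100) had 1.48 ± 0.784 CPM on day 7, against 0.0795 ± 0.0710 CPM on day 4 (log2FC 4.11 ± 0.66, adjusted p = 0.0028), and its log2 fold change was 4.75 without replicate 2 of day 4. Prolyl 4-hydroxylases modify wall proteins and use oxygen to do so. Of 9 tested genes of this family, noticed after its values were seen, 2 rose and none fell, against 2.18% and 2.21% of all genes. The median log2 fold change of the 9 was -0.09, and in mock roots 2 rose and none fell. Prolyl 4-hydroxylase 7 (Sobic.001G050900), chosen after its values were seen, had 26.4, 33.6 and 33.9 CPM on day 7, against 4.25, 3.80 and 3.16 CPM on day 4 (log2FC 3.07 ± 0.19, adjusted p = 3.0e-06), and mock levels were 61.1 ± 4.48 CPM on day 7, against 24.9 ± 6.46 CPM on day 4 (interaction adjusted p = 0.0071). Prolyl 4-hydroxylase 6 (Sobic.002G068600) was 18.4-fold higher, at 11.9 ± 1.502 CPM on day 7, against 0.644 ± 0.358 CPM on day 4 (adjusted p = 4.2e-05).

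LOB domain-containing protein 41 (Sobic.001G338600), a low-oxygen marker in Arabidopsis, had 58.4, 80.4 and 67.0 CPM on day 7, against 7.86, 7.84 and 14.7 CPM on day 4 (log2FC 2.76 ± 0.23, adjusted p = 1.5e-05). Mock roots had 226 ± 9.58 CPM on day 7, against 87.4 ± 11.1 CPM on day 4 (log2FC 1.37, adjusted p = 0.0076). The difference between these rises missed the threshold (interaction adjusted p = 0.071). Ethylene-responsive factor ERF071 rose at 2 genes, at 40.4 ± 5.72 CPM on day 7, against 10.7 ± 1.26 CPM on day 4 for Sobic.003G148600 and 10.8 ± 3.55 CPM on day 7, against 1.38 ± 0.904 CPM on day 4 for Sobic.009G111200 (adjusted p = 0.00021 and 0.00060). An oxidase that makes ethylene, 1-aminocyclopropane-1-carboxylate oxidase (Sobic.003G197200), had 21.0, 29.4 and 24.2 CPM on day 7, against 3.10, 3.21 and 4.52 CPM on day 4 (log2FC 2.79 ± 0.33, adjusted p = 0.00027). The largest fitted rise among all called genes belonged to Sobic.002G368500, which has no description but a protein domain named for the MLRQ subunit of mitochondrial complex I. Its counts were 1196, 3075 and 2166 on day 7, against 0, 0 and 2 on day 4. The ratio of the summed counts, scaled to the total counts of each day, was 3561, with a 95% exact interval from 985 to 29409 that covers counting error only. Both counts of day 4 lay in replicate 3, without which the fitted log2 fold change of 11.59 was 14.15. In mock roots it had 167, 140.2 and 171 CPM on day 7, against 57.4, 21.3 and 27.4 CPM on day 4 (log2FC 2.17, adjusted p = 0.010, interaction adjusted p = 0.00052). Day 4 of P deficiency held the lowest level of all 4 groups for the oxidases, prolyl 4-hydroxylases 6 and 7 and this gene. The same holds for LOB domain-containing protein 41. LOB domain-containing protein 41, the second ERF071 gene and Sobic.002G368500 were chosen after their values were seen.

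**Figure D3:**
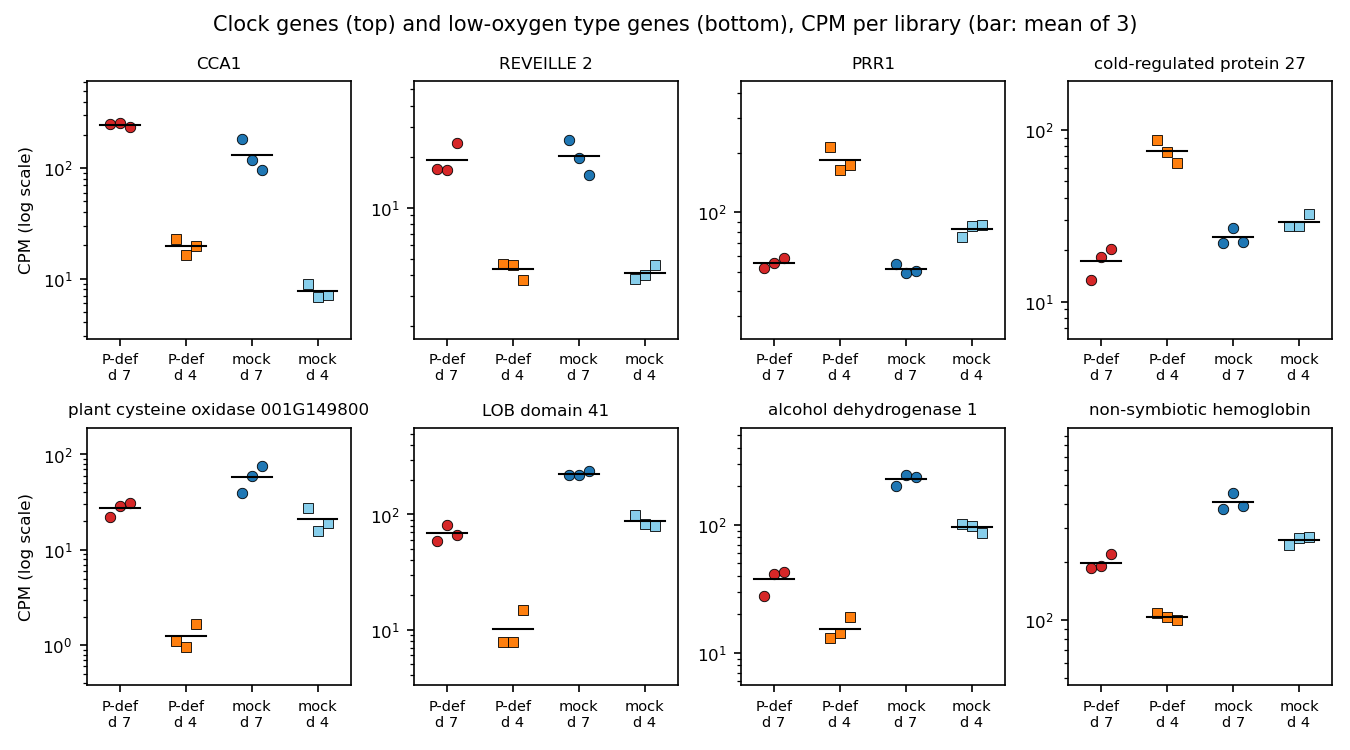
Level of 4 clock genes (top) and 4 genes known from the low-oxygen response (bottom) in each library, in CPM on a log axis, for P deficiency on day 7, P deficiency on day 4, mock on day 7 and mock on day 4, with bars for the means of 3. CCA1 and REVEILLE 2 are higher on day 7 in both conditions, PRR1 and cold-regulated protein 27 peak on day 4 of P deficiency, and all 4 genes of the bottom row are lowest on day 4 of P deficiency.

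Most called genes of phenolic and other specialised metabolism were lower on day 7. Of 85 tested flavonoid and anthocyanin genes 14 fell and 2 rose, against 2.21% and 2.18% of all genes, and the median log2 fold change of the list was -0.33 against -0.01 over all genes. The number called was 8 without replicate 2 of day 4 and 8 without replicate 2 or 3 of day 7. UDP-glycosyltransferases, which attach sugars to such compounds, gave 18 lower and 6 higher of 152 tested, with a median of -0.24, and 15 in all were called without replicate 2 of day 4. Cytochromes P450 gave 13 lower and 6 higher of 144, and glutathione S-transferases, which conjugate toxic compounds, 5 lower and none higher of 73. The P450 calls numbered 10 without replicate 1 of day 4, 11 without replicate 2 of day 4, 11 without replicate 1 of day 7 and 12 without replicate 2 of day 7, and those of the transferases 1 without replicate 2 of day 4, 2 without replicate 1 of day 7 and 3 without replicate 2 of day 7. The lists overlap in membership. A flavonoid 3'-monooxygenase (Sobic.002G216100), which hydroxylates flavonoids, had 6.50, 5.45 and 7.41 CPM on day 7, against 12.8, 25.8 and 24.4 CPM on day 4 (log2FC -1.70 ± 0.23, adjusted p = 0.00078). A flavonoid 3',5'-hydroxylase (Sobic.001G360800) went the other way, with 14.2, 11.4 and 14.03 CPM on day 7, against 4.74, 6.48 and 7.38 CPM on day 4 (log2FC 1.09 ± 0.16, adjusted p = 0.0017). Chalcone synthase 6 (Sobic.005G137300), an isoform of the first enzyme of the flavonoid branch chosen after its values were seen, had 15.1, 21.3 and 17.8 CPM on day 7, against 30.7, 51.6 and 51.7 CPM on day 4 (log2FC -1.30 ± 0.24, adjusted p = 0.0073). Chalcone synthase 5 (Sobic.005G136200) and a flavonoid O-methyltransferase-like gene (Sobic.005G101900), chosen likewise, were 1.96-fold and 4.92-fold lower (adjusted p = 0.024 and 0.015), and the first call ended without replicate 2 or 3 of day 4 or replicate 1, 2 or 3 of day 7. The second call ended without replicate 2 of day 4 or replicate 2 or 3 of day 7. In mock roots 4 members of the list fell and none rose. No member passed the interaction test.

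Genes around benzoate and phenylalanine changed as well. Benzyl alcohol O-benzoyltransferase (Sobic.001G201800), which makes benzoyl esters, had 1.63, 2.94 and 3.84 CPM on day 7, against 26.0, 23.1 and 11.6 CPM on day 4 (log2FC -2.85 ± 0.38, adjusted p = 0.00072). Peroxisomal benzoate-CoA ligase (Sobic.001G518800), which makes benzoyl-CoA, had 0.863, 1.93 and 1.58 CPM on day 7, against 13.1, 9.07 and 7.68 CPM on day 4 (log2FC -2.76 ± 0.33, adjusted p = 0.00032). A gene for phenylalanine ammonia-lyase (Sobic.006G148900), the entry enzyme of the pathway, had 3.51, 11.001 and 6.94 CPM on day 7, against 56.6, 39.2 and 30.9 CPM on day 4 (log2FC -2.56 ± 0.38, adjusted p = 0.0017). The much more abundant Sobic.004G220300 for the same enzyme had 9463, 9377 and 7489 CPM on day 7, against 4901, 4998 and 5360.2 CPM on day 4 and rose (log2FC 0.79 ± 0.15, adjusted p = 0.0074). Per length their levels on day 7 were 3075 ± 327 FPKM for Sobic.004G220300 and 2.46 ± 1.30 FPKM for Sobic.006G148900 (SD, n = 3). Both ammonia-lyase genes were chosen after their values were seen. A glycosyltransferase described as 7-deoxyloganetin glucosyltransferase (Sobic.006G101200) had 29.2, 23.8 and 29.5 CPM on day 7, against 78.1, 93.5 and 80.0 CPM on day 4. Mock roots had 64.9, 33.5 and 39.4 CPM on day 7, against 30.8, 37.7 and 32.6 CPM on day 4 (interaction adjusted p = 0.0064). Cytochrome P450 76M5 (Sobic.005G206601) fell to 13.0 ± 0.341 CPM on day 7, against 30.5 ± 3.53 CPM on day 4, with 108 ± 16.9 CPM on day 7, against 95.1 ± 12.2 CPM on day 4 in mock roots (interaction adjusted p = 0.0061). Cytochrome P450 71A1 (Sobic.002G216500) had 17.3 ± 6.30 CPM on day 7, against 57.2 ± 13.6 CPM on day 4 (log2FC -1.72 ± 0.26, adjusted p = 0.0021). Anthocyanidin 3-O-glucosyltransferase 2 (Sobic.002G311501) had 4.88 ± 0.851 CPM on day 7, against 10.7 ± 2.24 CPM on day 4 (log2FC -1.14 ± 0.17, adjusted p = 0.0019). Glutathione S-transferase GSTU6 (Sobic.001G318500) had 13.6 ± 1.89 CPM on day 7, against 27.9 ± 4.75 CPM on day 4 (log2FC -1.03 ± 0.17, adjusted p = 0.0039). Of 13 tested cytosolic sulfotransferases, a family noticed after its values were seen, 7 fell and none rose, against 2.21% and 2.18% of all genes. With any 1 library left out 6 or 7 fell. These enzymes add sulfate to phenolics, steroids and other small molecules. Cytosolic sulfotransferase 17 (Sobic.003G437200) had 34.2, 35.0 and 28.8 CPM on day 7, against 52.4, 51.2 and 69.6 CPM on day 4 (log2FC -0.82 ± 0.15, adjusted p = 0.0056). Cytosolic sulfotransferase 15 (Sobic.004G280000) had 18.1 ± 5.15 CPM on day 7, against 41.6 ± 8.47 CPM on day 4 (log2FC -1.20 ± 0.21, adjusted p = 0.0054). Of 4 tested terpene synthases 2 fell, against 2.21% of all genes. The number called was 1 without replicate 1 of day 4 and 1 without replicate 1 or 3 of day 7. Syn-copalyl diphosphate synthase (Sobic.005G161200), a step to rice phytoalexins, had 1.80 ± 0.651 CPM on day 7, against 6.22 ± 2.22 CPM on day 4 (log2FC -1.79 ± 0.30, adjusted p = 0.0035), and (E)-beta-caryophyllene synthase (Sobic.007G034700) had 22.8 ± 4.39 CPM on day 7, against 49.7 ± 8.68 CPM on day 4 (log2FC -1.12 ± 0.25, adjusted p = 0.022). The caryophyllene synthase call ended without replicate 1 of day 4 or replicate 1 or 3 of day 7 (adjusted p up to 0.10).

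Wall genes moved in both directions. In the list for secondary wall and lignin 4 of 107 tested members rose and 7 fell, and in that for Casparian strip and suberin 4 of 99 rose and 4 fell, against 2.18% and 2.21% of all genes. The calls of the first list numbered 7 without replicate 2 of day 4 and 7 without replicate 2 of day 7, and those of the second 5 without replicate 1 or 2 of day 4 and 4 without replicate 1 of day 7. The summed level of 30 xylem markers was 609 to 894 CPM on day 7 and 605 to 810.0 CPM on day 4, ranges that overlap, and its part in these changes was not tested. Among the lower genes was probable cinnamyl alcohol dehydrogenase 6 (Sobic.006G014700), an enzyme type of lignin monomer synthesis, with 3.24, 4.93 and 3.84 CPM on day 7, against 15.1, 17.8 and 10.3 CPM on day 4 (log2FC -1.84 ± 0.22, adjusted p = 0.00031, interaction adjusted p = 0.025). 4-coumarate-CoA ligase-like 7 (Sobic.002G158900) had 1.34 ± 0.0972 CPM on day 7, against 5.24 ± 1.34 CPM on day 4 (log2FC -1.97 ± 0.23, adjusted p = 0.00024). Cellulose synthase subunit 9 (Sobic.002G205500), a subunit of the secondary wall complex in rice, had 61.6, 46.8 and 42.9 CPM on day 7, against 64.3, 109.5 and 122 CPM on day 4 (log2FC -0.97 ± 0.22, adjusted p = 0.025), and its replicate 1 of day 4 lay near the day 7 libraries. That call ended without replicate 2 or 3 of day 4 or replicate 2 or 3 of day 7 (adjusted p up to 0.11). Mock roots held more, without a called change, at 552 ± 95.9 CPM on day 7, against 565 ± 48.7 CPM on day 4. Cellulose synthase subunit 7 (Sobic.001G224300) and 2 genes for NAC domain-containing protein 43 (Sobic.007G018100 and Sobic.010G022400), an activator of secondary walls in Arabidopsis, were 1.86-fold, 1.84-fold and 2.34-fold lower (adjusted p = 0.027, 0.017 and 0.036), and each of these calls ended without replicate 2 or 3 of day 4 and without replicate 2 or 3 of day 7. Laccase-14 (Sobic.002G001300), an oxidase type of lignin polymerisation, rose, with 12.3 ± 4.25 CPM on day 7, against 3.34 ± 1.53 CPM on day 4 (log2FC 1.88 ± 0.33, adjusted p = 0.0049). Of 94 extensins and related wall proteins 2 rose, or 2.13% against 2.18% of all genes. The number called was 1 without replicate 2 of day 4, 7 without replicate 3 of day 4, 1 without replicate 1 or 2 of day 7, 5 without replicate 3 of day 7 and 4 without replicate 1 of mock day 7. Among them was leucine-rich repeat extensin-like protein 6 (Sobic.001G159900), with 30.7 ± 4.30 CPM on day 7, against 16.0 ± 2.81 CPM on day 4 (log2FC 0.94 ± 0.15, adjusted p = 0.0032). The cellulose synthases, Sobic.010G022400 and laccase-14 were chosen after their values were seen.

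The higher genes of the suberin list were 3-ketoacyl-CoA synthase 20, glycerol-3-phosphate acyltransferase 5 and 2 feruloyl transferases, and the lower ones were 3 dirigent proteins and 3-ketoacyl-CoA synthase 11. 3-ketoacyl-CoA synthase 20 (Sobic.005G168700), which lengthens fatty acids, had 139.9, 92.1 and 83.5 CPM on day 7, against 18.7, 31.9 and 30.9 CPM on day 4 (log2FC 1.95 ± 0.30, adjusted p = 0.0023). Glycerol-3-phosphate acyltransferase 5 (Sobic.009G162000), which makes suberin precursors in Arabidopsis, had 71.7, 48.4 and 52.3 CPM on day 7, against 15.4, 27.7 and 29.3 CPM on day 4 (log2FC 1.25 ± 0.26, adjusted p = 0.017). Cytochromes P450 86A2 and 86B1 (Sobic.004G288500 and Sobic.001G213300), relatives of fatty acid hydroxylases, were 3.14-fold and 2.44-fold higher (adjusted p = 0.013 and 0.016). The calls of the acyltransferase and of both cytochromes ended without replicate 1 of day 7, which held their highest values, with adjusted p of 0.081, 0.060 and 0.079, and that of 86B1 also without replicate 1 of day 4. Omega-hydroxypalmitate O-feruloyl transferases (Sobic.003G368100 and Sobic.005G122800), which link ferulate to suberin monomers, were 2.35-fold and 2.44-fold higher (adjusted p = 0.016 and 0.021). Both calls ended without replicate 1 of day 4 or of day 7, the second also without replicate 3 of day 4. For the synthase, the acyltransferase and both cytochromes replicate 1 of day 4 was the lowest library and replicate 1 of day 7 the highest of the 6. In contrast 3-ketoacyl-CoA synthase 11 (Sobic.009G241000) fell, with 8.51, 9.01 and 9.29 CPM on day 7, against 14.3, 20.1 and 18.1 CPM on day 4, and rose in mock roots, with 48.6, 53.9 and 48.9 CPM on day 7, against 32.0, 27.3 and 31.5 CPM on day 4 (interaction adjusted p = 0.0019). Besides the 2 ketoacyl-CoA synthases, these genes were chosen after their values were seen.

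**Figure D4:**
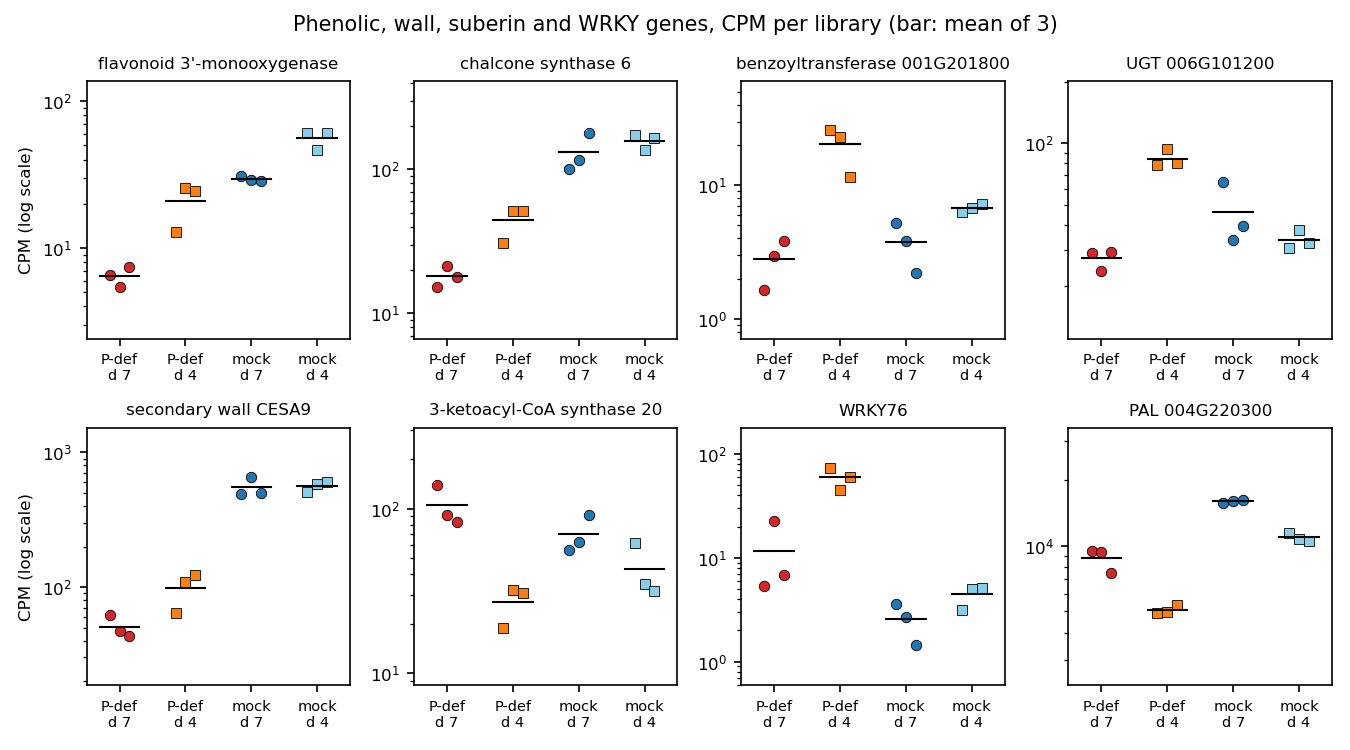
Level of 8 genes of phenolic metabolism, cell walls, suberin and WRKY regulation in each library, in CPM on a log axis, for P deficiency on day 7, P deficiency on day 4, mock on day 7 and mock on day 4, with bars for the means of 3. The top row is lower in every P deficiency library of day 7 than in any of day 4, while 3-ketoacyl-CoA synthase 20 and the phenylalanine ammonia-lyase gene are higher.

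Transport genes for nitrate changed in opposite directions within a cluster of copies. In the list for nitrate and ammonium 3 of 98 tested members rose and 8 fell, against 2.18% and 2.21% of all genes. The number called was 5 without replicate 2 of day 4, 6 without replicate 1 of day 4, 6 without replicate 1 or 2 or 3 of day 7 and 17 without replicate 1 of mock day 7. The family NRT1/PTR carries nitrate, peptides or hormones, and 6 genes with neighbouring identifiers share the description NRT1/PTR family 5.10. Of the 5 tested, 2 rose, 2 fell and 1 was not called. Sobic.003G371100 had 63.6, 39.9 and 69.7 CPM on day 7, against 3.18, 2.41 and 1.12 CPM on day 4 (log2FC 4.69 ± 0.33, adjusted p = 4.9e-06). Mock roots had 3.35, 3.24 and 4.002 CPM on day 7, against 0.889, 0.868 and 0.625 CPM on day 4 (interaction adjusted p = 0.035, a call that ended in 8 of the 12 fits with 1 library left out). Sobic.003G371400 had 5.18, 5.96 and 5.27 CPM on day 7, against 35.4, 31.5 and 32.1 CPM on day 4 (log2FC -2.59 ± 0.27, adjusted p = 0.00011). The abundant Sobic.003G371000, chosen after its values were seen, had 1152, 976 and 1116 CPM on day 7, against 445, 404 and 301 CPM on day 4 (log2FC 1.496 ± 0.18, adjusted p = 0.00032). These copies are similar by description, so how shared reads were counted could affect them. NRT1/PTR family 6.3 (Sobic.007G044300), the relative of the nitrate sensor and transporter NRT1.1 of Arabidopsis and likewise chosen after its values were seen, had 65.3, 56.6 and 69.7 CPM on day 7, against 106, 113 and 116 CPM on day 4 (log2FC -0.81 ± 0.15, adjusted p = 0.0063). It fell in mock roots too (log2FC -0.97, adjusted p = 0.0070, interaction adjusted p = 0.92).

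The phosphate genes that passed the test between the days were few in number, in short lists. With all 12 libraries, the shares called of phosphate transporters, SPX domain proteins and purple acid phosphatases were above the 4.39% of all genes. Of 13 tested phosphate transporters 2 rose and none fell, with a median log2 fold change of 0.69, and of 9 SPX domain proteins 1 fell, against 2.18% and 2.21% of all genes. Inorganic phosphate transporter 1-2 (Sobic.001G502000), of the family that imports phosphate into roots, had 215, 161 and 111 CPM on day 7, against 63.5, 69.9 and 49.2 CPM on day 4 (log2FC 1.41 ± 0.31, adjusted p = 0.021). Its mock levels were 1713 ± 729 CPM on day 7, against 1901 ± 429 CPM on day 4. Inorganic phosphate transporter 1-6 (Sobic.007G164400) had 1.85, 1.01 and 1.70 CPM on day 7, against 0.329, 0.386 and 0.587 CPM on day 4 (log2FC 1.79 ± 0.40, adjusted p = 0.022). SPX domain-containing protein 1 was slightly lower (log2FC -0.51 ± 0.13, adjusted p = 0.045). These 3 calls were near the threshold. For transporter 1-2 its adjusted p lay between 0.0048 and 0.098 as each of the 12 libraries was left out in turn, and the call ended without any 1 P deficiency library but replicate 3 of day 7. For transporter 1-6 the range was 0.0070 to 0.094, and the call ended without replicate 1 or 2 of day 4 or replicate 1 or 3 of day 7. For SPX domain-containing protein 1 it was 0.021 to 0.25, and the call ended in 11 of the 12 fits, the exception being that without replicate 3 of P deficiency on day 4. There 3 SPX genes were called lower, and without replicate 1 of mock day 7 2 genes other than SPX domain-containing protein 1 were called, 1 in each direction. Of 25 purple acid phosphatases, which release phosphate from organic matter, 3 fell and none rose, against 2.21% and 2.18% of all genes. The description of Sobic.007G190200 is probable inactive purple acid phosphatase 27, and it had 681, 638 and 638 CPM on day 7, against 1186, 1071 and 1130.2 CPM on day 4 (log2FC -0.79 ± 0.13, adjusted p = 0.0033). Probable inactive purple acid phosphatase 1 (Sobic.002G303700) had 58.1 ± 3.24 CPM on day 7, against 84.7 ± 5.66 CPM on day 4 (log2FC -0.54 ± 0.13, adjusted p = 0.031). This call ended without replicate 1 or 2 of day 4 or replicate 1, 2 or 3 of day 7 (adjusted p up to 0.14). In that list 1 phosphatase in all was called without replicate 1 or 2 of day 4 or of day 7. Of 44 genes of membrane lipid remodelling 2 rose and 1 fell, against 2.18% and 2.21% of all genes. Phospholipase D alpha 1 (Sobic.008G183400), which cleaves membrane phospholipids, had 12.9 ± 4.68 CPM on day 7, against 3.28 ± 2.17 CPM on day 4 (log2FC 1.98 ± 0.44, adjusted p = 0.021). This call ended without replicate 2 or 3 of day 4 or replicate 2 of day 7 (adjusted p up to 0.090). Phospholipase D alpha 2 (Sobic.010G185600) had 26.2 ± 2.30 CPM on day 7, against 36.6 ± 0.376 CPM on day 4 (log2FC -0.48 ± 0.11, adjusted p = 0.028). This call ended without replicate 1, 2 or 3 of day 4, replicate 1 or 3 of day 7 or replicate 2 or 3 of mock day 4 (adjusted p up to 0.11). The lipid calls numbered 0 without replicate 2 of day 4, 1 without replicate 3 of day 4 and 1 without replicate 3 of day 7. Of 20 strigolactone genes none was called by edgeR, where 3 had an unadjusted p below 0.05 and DESeq2 called 1.

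Among other ions and water, 3 of 39 potassium channels and transporters rose and 2 fell, against 2.18% and 2.21% of all genes. With 1 library left out, the calls numbered 2 without replicate 1 of day 4, 3 without replicate 2 of day 4 and 3 without replicate 1 or 2 or 3 of day 7. Potassium transporter 19 (Sobic.006G061700) had 104, 85.6 and 47.3 CPM on day 7, against 27.9, 24.9 and 15.4 CPM on day 4 (log2FC 1.79 ± 0.34, adjusted p = 0.0083). Potassium channel AKT2 (Sobic.009G146800), a phloem channel in Arabidopsis, had 10.1, 11.7 and 10.5 CPM on day 7, against 4.55, 3.73 and 3.34 CPM on day 4 (log2FC 1.48 ± 0.26, adjusted p = 0.0047). Of 34 aquaporins, the water channels, 2 rose and 2 fell, against 2.18% and 2.21% of all genes. From 3 to 5 were called with 1 library left out. Tonoplast aquaporin TIP4-2 (Sobic.009G085900) had 26.1, 23.8 and 34.0 CPM on day 7, against 196, 156 and 129 CPM on day 4 (log2FC -2.52 ± 0.28, adjusted p = 0.00016). Aquaporin NIP1-3 (Sobic.009G075900) had 3.22 ± 0.444 CPM on day 7, against 9.73 ± 0.640 CPM on day 4 (log2FC -1.60 ± 0.20, adjusted p = 0.00045). Of 16 sulfate genes 2 fell and none rose, against 2.21% and 2.18% of all genes. Sulfate transporter 1.2 (Sobic.007G123500) had 7.23 ± 0.413 CPM on day 7, against 12.8 ± 1.91 CPM on day 4 (log2FC -0.82 ± 0.18, adjusted p = 0.020). Low affinity sulfate transporter 3 (Sobic.001G470800) had 18.5 ± 2.28 CPM on day 7, against 31.4 ± 3.26 CPM on day 4 (log2FC -0.76 ± 0.20, adjusted p = 0.049). The first call ended without replicate 1 or 2 of day 4 or replicate 1, 2 or 3 of day 7 (adjusted p up to 0.093), and the second ended without replicate 1, 2 or 3 of day 4, replicate 1, 2 or 3 of day 7, replicate 2 or 3 of mock day 4 or replicate 2 of mock day 7 (adjusted p up to 0.20). In the sugar list 1 of 66 members rose and 2 fell, a share of 4.55% against 4.39% of all genes. With 1 library left out, the calls numbered 1 without replicate 2 of day 4, 1 without replicate 1 of day 7 and 6 without replicate 1 of mock day 7. Alkaline/neutral invertase F (Sobic.005G058800), which splits sucrose, had 60.8, 57.5 and 56.8 CPM on day 7, against 157, 139.6 and 133 CPM on day 4 (log2FC -1.29 ± 0.10, adjusted p = 1.2e-05). The bidirectional sugar transporter SWEET3b (Sobic.003G015200) had 138 ± 18.7 CPM on day 7, against 72.4 ± 8.26 CPM on day 4 (log2FC 0.93 ± 0.21, adjusted p = 0.023) and rose in mock roots too (adjusted p = 0.0076). Its call between the days of P deficiency ended without replicate 2 or 3 of day 4 or replicate 1 or 3 of day 7 (adjusted p up to 0.096).

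Hormone and transcription factor genes showed scattered changes. Of 117 auxin genes 4 rose and 7 fell, against 2.18% and 2.21% of all genes. With 1 library left out, the calls numbered 4 without replicate 1 of day 4, 5 without replicate 2 of day 4, 5 without replicate 1 of day 7, 6 without replicate 2 or 3 of day 7 and 7 without replicate 3 of mock day 4. Auxin-responsive protein IAA7 (Sobic.004G099600), a repressor of auxin signalling, had 41.5, 29.98 and 32.6 CPM on day 7, against 9.64, 10.7 and 11.1 CPM on day 4 (log2FC 1.73 ± 0.21, adjusted p = 0.00040). Mock roots had 2.64, 4.26 and 3.69 CPM on day 7, against 5.98, 6.53 and 3.93 CPM on day 4 (interaction adjusted p = 0.0051). Auxin efflux carrier component 9 (Sobic.003G327500) had 3.70, 5.53 and 4.71 CPM on day 7, against 0.931, 1.43 and 1.17 CPM on day 4 (log2FC 1.97 ± 0.26, adjusted p = 0.00072). Cytokinin dehydrogenase 7 (Sobic.004G094000), which degrades cytokinin, had 22.4, 17.3 and 16.5 CPM on day 7, against 8.19, 8.27 and 7.27 CPM on day 4 (log2FC 1.24 ± 0.23, adjusted p = 0.0069). Of 118 ethylene genes 7 rose and 2 fell, against the same shares, and 5 were called without replicate 2 of day 4. Of 40 jasmonate genes 2 fell, close to the 4.39% of all genes called, and 1 was called without replicate 1 of day 7 or replicate 1 or 2 of mock day 4. They were TIFY 6b (Sobic.002G196200), a jasmonate repressor type, at 48.5 ± 5.75 CPM on day 7, against 69.2 ± 9.17 CPM on day 4 (log2FC -0.51 ± 0.12, adjusted p = 0.034), and allene oxide synthase 3 (Sobic.004G093200) with 8.26, 7.84 and 6.55 CPM on day 7, against 16.3, 21.6 and 22.1 CPM on day 4 (log2FC -1.41 ± 0.20, adjusted p = 0.0014). The TIFY 6b call ended without replicate 1 or 3 of day 4, replicate 1 or 3 of day 7 or replicate 1 or 2 of mock day 4 (adjusted p up to 0.12). Of 17 abscisic acid genes 2 rose, both low, and none fell, against 2.18% and 2.21% of all genes. In all 1 was called without replicate 1 or 2 of day 4, any replicate of day 7 or replicate 2 of mock day 7. Abscisic acid-insensitive 5-like protein 3 (Sobic.001G388300) had 2.68 ± 0.151 CPM on day 7, against 0.718 ± 0.250 CPM on day 4 (adjusted p = 0.0049). Abscisic acid-insensitive 5 (Sobic.003G363400) had 2.78 ± 0.230 CPM on day 7, against 0.528 ± 0.274 CPM on day 4 (adjusted p = 0.047). The call of abscisic acid-insensitive 5 ended without replicate 1, 2 or 3 of day 4, replicate 1, 2 or 3 of day 7 or replicate 2 of mock day 7 (adjusted p up to 0.15). Gibberellin 2-beta-dioxygenase 8 (Sobic.004G329100), which inactivates gibberellin, had 4.72 ± 0.602 CPM on day 7, against 8.30 ± 1.13 CPM on day 4 (log2FC -0.81 ± 0.18, adjusted p = 0.022), a call that ended without replicate 1 or 2 of day 4 or replicate 1 or 2 of day 7 (adjusted p up to 0.11). Of 87 bHLH factors 8 rose and 3 fell, against 2.18% and 2.21% of all genes, several of which are the iron regulators above. The factor bHLH84 (Sobic.003G273200), a relative of root hair regulators of Arabidopsis, had 23.0, 22.9 and 23.0 CPM on day 7, against 9.18, 8.64 and 8.83 CPM on day 4 (log2FC 1.37 ± 0.14, adjusted p = 9.1e-05). Summed levels of 5 root hair markers were 276 to 299 CPM on day 7 and 283 to 294 CPM on day 4. The myb family factor APL (Sobic.007G137300), a phloem regulator in Arabidopsis, had 51.8 ± 1.95 CPM on day 7, against 23.1 ± 1.47 CPM on day 4 (log2FC 1.17 ± 0.14, adjusted p = 0.00027), while 6 sucrose transport proteins, taken as phloem markers, summed to 255 to 315 CPM on day 7 and 236 to 277 CPM on day 4. MYBS3 (Sobic.001G297500), a repressor of starch breakdown in rice seedlings, had 80.6 ± 4.12 CPM on day 7, against 55.1 ± 7.17 CPM on day 4 (log2FC 0.55 ± 0.11, adjusted p = 0.010) and rose in mock roots too (adjusted p = 0.024).

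Called genes of the defence lists lay in both directions. Of 77 WRKY factors, which regulate defence and senescence, 6 fell and none rose, against 2.21% and 2.18% of all genes, and 3 were called without replicate 1 of day 4 or of day 7. WRKY 70 (Sobic.008G060300), a salicylic acid response factor in Arabidopsis, had 30.3, 60.2 and 33.7 CPM on day 7, against 117, 93.5 and 119 CPM on day 4 (log2FC -1.40 ± 0.26, adjusted p = 0.0075). WRKY76 (Sobic.002G202700), a repressor of defence genes in rice, had 5.39, 22.5 and 6.79 CPM on day 7, against 73.5, 45.0 and 60.4 CPM on day 4 (log2FC -2.36 ± 0.47, adjusted p = 0.011), and without replicate 2 of day 7, the highest of its group, the log2 fold change was -3.29. SAR DEFICIENT 1 (Sobic.007G107600), which activates salicylic acid synthesis in Arabidopsis, had 1.23, 2.01 and 1.28 CPM on day 7, against 17.1, 11.3 and 9.65 CPM on day 4 (log2FC -3.06 ± 0.28, adjusted p = 3.5e-05). Mock roots had 1.06 ± 0.168 CPM on day 7, against 1.61 ± 0.190 CPM on day 4 (interaction adjusted p = 0.013). Of 130 defence proteins 6 rose and 1 fell, or 5.38% against 4.39% of all genes called, and 5 to 9 were called with 1 library left out. Chitinase 2 (Sobic.001G247900) had 29.2, 31.2 and 19.3 CPM on day 7, against 9.75, 9.66 and 13.1 CPM on day 4 (log2FC 1.29 ± 0.20, adjusted p = 0.0026), and pathogenesis-related protein PRB1-2 (Sobic.001G333400) fell, with 135, 134 and 145 CPM on day 7, against 276, 299 and 237 CPM on day 4 (log2FC -0.97 ± 0.12, adjusted p = 0.00040). Pathogenesis-related protein PRB1-3 (Sobic.002G023200), chosen after its values were seen, had 83.3, 121 and 90.2 CPM on day 7, against 17.2, 13.9 and 7.81 CPM on day 4 (log2FC 2.92 ± 0.52, adjusted p = 0.0059). Acidic endochitinase (Sobic.003G244600), chosen likewise, had 24.3 ± 5.52 CPM on day 7, against 8.11 ± 3.18 CPM on day 4 (log2FC 1.58 ± 0.26, adjusted p = 0.0033), and mock levels were 5.82 ± 0.412 CPM on day 7, against 8.50 ± 2.01 CPM on day 4 (interaction adjusted p = 0.025). Of 124 class III peroxidases, which act on walls and phenolics, 7 rose and 3 fell, against 2.18% and 2.21% of all genes. Peroxidase 5 (Sobic.009G033500) had 9.53 ± 4.54 CPM on day 7, against 1.66 ± 0.440 CPM on day 4 (log2FC 2.52 ± 0.36, adjusted p = 0.0012). Peroxidase 70 (Sobic.002G416500) had 1.41 ± 0.110 CPM on day 7, against 4.31 ± 1.70 CPM on day 4 (log2FC -1.62 ± 0.31, adjusted p = 0.0087). The peroxidase calls numbered 2 without replicate 1 of day 4, 5 without replicate 2 of day 4, 3 without replicate 1 of day 7, 5 without replicate 2 of day 7 and 6 without replicate 3 of day 7. Of 43 tested germin-like proteins, a family noticed after its values were seen, 8 rose and none fell, against 2.18% and 2.21% of all genes. With 1 library left out, the calls numbered 4 without replicate 2 of day 4, 5 without replicate 1 of day 4, 4 without replicate 2 of day 7, 5 without replicate 1 of day 7 and 13 without replicate 1 of mock day 7. Germin-like protein 12-2 (Sobic.007G066500) had 22.1, 18.4 and 8.75 CPM on day 7, against 3.37, 1.84 and 1.28 CPM on day 4 (log2FC 2.93 ± 0.49, adjusted p = 0.0035).

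The largest changes outside these groups were spread over other functions. Zinc finger CCCH domain-containing protein 37 (Sobic.009G205100) had the largest rise under the rule for named genes, with 15.9, 11.8 and 14.4 CPM on day 7, against 0.110, 0.796 and 0.255 CPM on day 4 (log2FC 5.12 ± 0.41, adjusted p = 1.3e-05), and without replicate 2 of day 4 its log2 fold change was 6.25. Mock roots had 38.3 ± 8.23 CPM on day 7, against 15.1 ± 2.33 CPM on day 4 (interaction adjusted p = 0.0058). A cysteine protease described as ervatamin-B (Sobic.010G239300) had 12.4, 15.9 and 15.6 CPM on day 7, against 0.520, 0.296 and 1.1996 CPM on day 4, and its log2 fold change of 4.45 was 5.17 without replicate 3 of day 4. A homolog of transport and Golgi organization 2 (Sobic.010G275100) had 14.5, 21.3 and 19.95 CPM on day 7, against 1.84, 1.64 and 0.791 CPM on day 4 (log2FC 3.71 ± 0.31, adjusted p = 2.0e-05). It rose in mock roots too (log2FC 3.06, adjusted p = 0.00086, interaction adjusted p = 0.78). FCS-like zinc finger 6 (Sobic.010G015300) was 12.2-fold higher (log2FC 3.60 ± 0.31, adjusted p = 2.2e-05). Expansin-B15 (Sobic.004G294500), of a family that loosens walls, had 7.46, 6.02 and 7.41 CPM on day 7, against 0.794, 0.818 and 0.689 CPM on day 4 (log2FC 3.18 ± 0.44, adjusted p = 0.0011). Of 118 expansins and xyloglucan enzymes 2 rose and 2 fell, of 71 NAC factors 4 rose and 2 fell, of 96 MYB factors 5 rose and 2 fell, of 70 heat shock proteins and factors 2 fell, of 7 dehydrins and LEA proteins 1 rose and 1 fell, and of 9 sorgoleone genes 1 fell. Over all genes 2.18% rose and 2.21% fell, and the shares called of the expansin list (3.39%) and the heat shock list (2.86%) were below the 4.39% of all genes. The NAC calls numbered 2 without replicate 2 or 3 of day 4, 2 without replicate 2 of day 7, 3 without replicate 2 or 3 of mock day 4 and 10 without replicate 1 of mock day 7. The expansin calls numbered 2 without replicate 1 or 2 of day 4, 1 without replicate 2 of day 7, 2 without replicate 1 of day 7 and 2 without replicate 2 or 3 of mock day 4. The MYB calls numbered 3 without replicate 2 of day 4, 3 without replicate 2 of day 7 and 4 without replicate 1 of day 7, and those of heat shock genes 1 without replicate 2 or 3 of day 4 and 1 without replicate 1 or 2 of day 7. The calls of dehydrins and LEA proteins numbered 0 without replicate 1 or 2 of day 4, 1 without replicate 3 of day 4, 0 without replicate 1 or 2 of day 7, 1 without replicate 3 of day 7, 0 without replicate 1 or 2 of mock day 4, 1 without replicate 3 of mock day 4 and 1 without replicate 2 of mock day 7.

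On the lower side, alpha-amylase 3 (Sobic.003G276400), a plastid enzyme of starch breakdown, had 2.31, 1.88 and 1.37 CPM on day 7, against 10.5, 10.3 and 14.7 CPM on day 4 (log2FC -2.67 ± 0.21, adjusted p = 1.2e-05). The gene for 3-methyl-2-oxobutanoate hydroxymethyltransferase (Sobic.003G011600), which starts the pathway to pantothenate, had 0.956, 1.06 and 0.983 CPM on day 7, against 5.18, 7.18 and 6.18 CPM on day 4 (log2FC -2.62 ± 0.23, adjusted p = 3.1e-05). It fell in mock roots too, with 4.08 ± 1.08 CPM on day 7, against 27.5 ± 4.09 CPM on day 4 (log2FC -2.75, interaction adjusted p = 0.98). Metacaspase-1 (Sobic.001G351500), of a family of cysteine proteases linked to cell death, had 6.13, 2.40 and 2.71 CPM on day 7, against 14.02, 31.6 and 28.4 CPM on day 4 (log2FC -2.73 ± 0.38, adjusted p = 0.0010). NYC1 (Sobic.003G010600), which starts the breakdown of chlorophyll b, had 6.07, 5.50 and 4.82 CPM on day 7, against 28.9, 28.7 and 29.1 CPM on day 4 (log2FC -2.40 ± 0.17, adjusted p = 4.6e-06). Mock roots had 13.8 ± 3.11 CPM on day 7, against 19.8 ± 1.54 CPM on day 4 (interaction adjusted p = 0.0029). An aminotransferase predicted by the authors (NewGene_603) was 7.38-fold lower (log2FC -2.88 ± 0.44, adjusted p = 0.0022). Glycerate dehydrogenase (Sobic.004G001300), chosen after its values were seen, had 7.82 ± 2.26 CPM on day 7, against 34.1 ± 13.4 CPM on day 4 (log2FC -2.12 ± 0.34, adjusted p = 0.0030). Mock roots had 0.440, 0.268 and 0.215 CPM on day 7, against 0, 0.0898 and 0 CPM on day 4 (interaction adjusted p = 0.024). Its interaction call ended in 6 of the 12 fits with 1 library left out. Heat stress factor C-1a (Sobic.003G226800) had 5.45 ± 0.411 CPM on day 7, against 14.8 ± 1.65 CPM on day 4 (log2FC -1.45 ± 0.19, adjusted p = 0.00057). Zingiberene synthase (Sobic.007G055500), a sesquiterpene synthase, had 1.29, 3.43 and 0.417 CPM on day 7, against 18.5, 8.62 and 11.4 CPM on day 4 (log2FC -2.89 ± 0.69, adjusted p = 0.033), a call that ended without any 1 P deficiency library but replicate 2 of day 7 (adjusted p up to 0.14). The gene without a description at Sobic.003G326400 had 72.9, 60.4 and 64.3 CPM on day 7, against 2.82, 2.14 and 1.35 CPM on day 4 (log2FC 4.97 ± 0.47, adjusted p = 5.1e-05) and was chosen after its values were seen.

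Few growth and division genes passed the test. None of 80 cyclin and DNA replication genes and none of 43 core histones was called by edgeR, and 1 of 210 cytosolic ribosomal proteins was lower, against 4.39% of all genes. Of the cyclin list 3 genes had an unadjusted p below 0.05 and DESeq2 called 2, and of the histones 3 had an unadjusted p below 0.05 and DESeq2 called none. Of 7 tested oleosins and seed storage proteins none was called by either tool or had an unadjusted p below 0.05. Of 36 photosynthesis genes 1 rose, namely RuBisCO activase (Sobic.005G231500), at 3.74 ± 1.07 CPM on day 7, against 1.01 ± 0.0140 CPM on day 4 (log2FC 1.88 ± 0.43, adjusted p = 0.025), and the ribosomal protein was P0 (Sobic.009G229400), at 1.43 ± 0.415 CPM on day 7, against 3.20 ± 0.323 CPM on day 4 (log2FC -1.16 ± 0.26, adjusted p = 0.023). The activase call ended without replicate 1, 2 or 3 of day 4 or replicate 2 or 3 of day 7 (adjusted p up to 0.096), which left no photosynthesis gene called, and 2 were called without replicate 2 of mock day 7. The P0 call ended without replicate 1 or 2 of day 4 or replicate 1 or 2 of day 7 (adjusted p up to 0.10), which left no ribosomal protein called. Median log2 fold changes were 0.13 for cyclins and replication, -0.003 for histones and -0.12 for ribosomal proteins.

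The change with time was compared directly between the conditions. In mock roots 213 genes were higher on day 7 (0.847% of those tested) and 125 were lower (0.497%), together 1.34%. Scaled by total counts only, the mock split was 149 higher and 140 lower. Without replicate 1 of mock on day 7, the mock library that stood apart, 307 were higher and 436 lower, 743 in all. The larger share was then lower. The mock count was 94 and 171 without replicates 2 and 3 of mock on day 7, and 170, 82 and 66 without replicates 1, 2 and 3 of mock on day 4. Of the genes called higher in roots labelled P deficiency 19.9% were also called higher in mock, and these were 51.2% of the mock genes. For lower genes the shares were 9.55% and 42.4%. Of the 1103 called genes 82.2% had the same sign in mock, against 58.9% of all genes. The interaction test called 117 genes, with 67 changes more positive in P deficiency and 50 more negative. The count was 60 without replicate 2 of P deficiency on day 4, 75 without replicate 1 and 72 without replicate 2 of P deficiency on day 7, 73 and 68 without replicates 1 and 2 of mock on day 4, 58 without replicate 2 of mock on day 7, and 180 without replicate 1 of mock on day 7, a library that lay apart from its group on a principal component. Among the 117 genes, 70 were called in P deficiency and not in mock, 22 in mock and not in P deficiency, 6 in both with opposite directions, 16 in both with one direction and 3 in neither.

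Among genes with a description and at least 5 CPM in some group, the 4 positive interactions with the smallest p were BRUTUS, oligopeptide transporter 3, Ipomoelin and Fe(2+) transport protein 2, and 3 of these are iron genes. Ipomoelin (Sobic.005G182500), a wound-induced lectin in sweet potato, had 65.3, 58.1 and 59.1 CPM on day 7, against 16.7, 10.2 and 13.1 CPM on day 4 (log2FC 2.19 ± 0.17, adjusted p = 1.2e-05). Mock roots had 32.9, 28.5 and 24.0 CPM on day 7, against 35.0, 35.1 and 39.2 CPM on day 4 (interaction adjusted p = 0.00052). The 4 negative ones with the smallest p were F-box protein At2g16365, 3-ketoacyl-CoA synthase 11, vacuolar iron transporter 1.2 and NYC1. The F-box gene (Sobic.009G223500) had 25.3, 25.1 and 26.0 CPM on day 7, against 135, 102 and 99.3 CPM on day 4 (log2FC -2.14 ± 0.12, adjusted p = 1.6e-06). Mock roots had 49.3, 45.0 and 46.5 CPM on day 7, against 69.4, 65.2 and 69.7 CPM on day 4 (interaction adjusted p = 0.0014). NAC domain-containing protein 67 (Sobic.001G040200) rose in roots labelled P deficiency, with 108, 98.7 and 97.8 CPM on day 7, against 60.4, 57.7 and 64.7 CPM on day 4, and fell in mock roots, with 29.5, 28.9 and 27.4 CPM on day 7, against 35.1, 41.9 and 46.5 CPM on day 4 (interaction adjusted p = 0.0041).

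**Figure D5:**
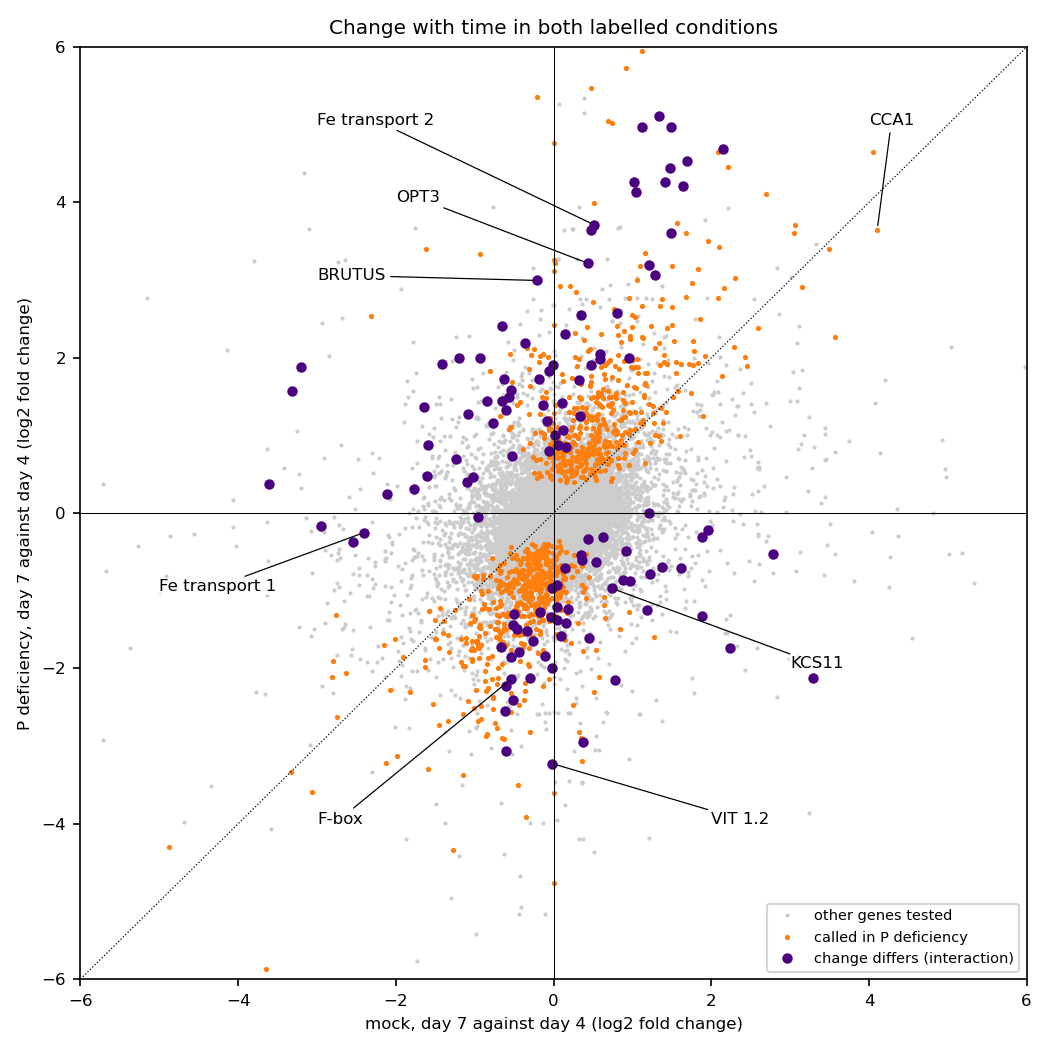
Log2 fold change of day 7 against day 4 in roots labelled P deficiency (vertical) against that in mock roots (horizontal), 1 point per gene. Orange points are called in P deficiency, purple points are the genes whose change differed between the conditions by the interaction test, and the dotted line marks equal change. BRUTUS, OPT3 and Fe(2+) transport protein 2 lie high near the vertical axis and vacuolar iron transporter 1.2 low on it, while CCA1 lies near the dotted line. 27 genes beyond the axis limits are not drawn.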

How the data were processed

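RNA-seq of sorghum roots gave 1 table of read counts per gene, made by the authors and deposited as raw counts, and 1 deposited table of FPKM (fragments scaled to gene length and library size). Per the submitters' processing notes, fastp, HISAT2, featureCounts and DESeq2 1.22.1 were used; the genome build, strand setting and treatment of reads shared by copies are not stated there. Counts of the 12 libraries of days 7 and 4 were scaled by TMM, filtered with filterByExpr and fitted with 1 mean per group in edgeR 4.0.16 (robust quasi-likelihood, Benjamini-Hochberg adjustment over 25137 genes, R 4.3.3). The contrasts were day 7 minus day 4 in roots labelled P deficiency, the same in mock, and their difference. CPM are TMM-scaled; FPKM served only to compare levels between genes. In the 6 libraries of P deficiency a count of 0 allows up to 0.0925 TMM-scaled CPM (3 counts), for counting error only. On simulated counts, 41 of 66 genes changed by 1 on the log2 scale were recovered, 67 of 67 changed by 2 and 66 of 67 changed by 3, with 7 false calls.

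Named genes were the 10 per direction with the largest change among called genes with a description, a mean of 5 CPM or more on either day and groups that did not overlap; the 2 called members of each list with the smallest adjusted p and at least 2 CPM; the 4 per direction with the smallest interaction p; and all called SPX and phosphate transporter genes. Members and lists were chosen with earlier results of these data known, and 62 further genes and 8 families after the values were seen. Alternatives were RLE size factors, total counts only, DESeq2 1.42.0, no filter or one of 30 reads in 3 libraries, only the 6 libraries compared, a 2-fold limit, the replicate number as a block, and each library left out.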

Additional observations from a re-analysis of the deposited data

Results flagged for a closer look

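The change between day 7 and day 4 differed between roots labelled P deficiency and mock roots for 117 genes by the interaction test. Of these, 34 are described in the Results and listed here. STAR2, NewGene_1212 and Sobic.003G280200, described under other observations, also passed it and are not among the 34. The stability of their interaction calls is not given. Each value here is the log2 fold change in P deficiency minus that in mock, so a positive value means a more positive change in P deficiency. Among iron genes it was 3.21 for BRUTUS, 3.20 for Fe(2+) transport protein 2, 2.78 for oligopeptide transporter 3, 2.20 for Nramp1, 2.15 for Fe(2+) transport protein 1, 1.92 for Nramp2 and 1.46 for bHLH47-like, -1.97 for vacuolar iron transporter homolog 5 and -3.21 for vacuolar iron transporter 1.2. For Fe(2+) transport protein 1 the called change was that in mock.

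Among genes known from the low-oxygen response in other plants it was 2.96 and 2.12 for plant cysteine oxidase 2 (Sobic.001G149800 and Sobic.003G037600), and 2.57 and 1.78 for prolyl 4-hydroxylases 6 and 7. Zinc finger CCCH domain-containing protein 37 had 3.78, and Sobic.003G326400, without a description, had 3.85. Sobic.002G368500, also without a description, had 9.41, a fitted value that depends on the prior count since the gene had 2 counts on day 4. Among clock and light genes it was -1.06 for PRR1, -1.62 for JMJ30 and -1.83 for cold-regulated protein 27. Among genes of specialised metabolism and walls it was -2.06 for 7-deoxyloganetin glucosyltransferase, -1.73 for cinnamyl alcohol dehydrogenase 6, -1.71 for 3-ketoacyl-CoA synthase 11 and -1.42 for cytochrome P450 76M5.

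The remaining values were 2.54 for NRT1/PTR family 5.10 (Sobic.003G371100), -0.79 for invertase F, 2.36 for IAA7, 1.26 for NAC domain-containing protein 67, -2.46 for SAR DEFICIENT 1, -0.95 for PRB1-2, 2.13 for acidic endochitinase, 2.55 for Ipomoelin, -1.60 for the F-box gene, -1.89 for NYC1 and -5.41 for glycerate dehydrogenase. With 1 library left out, the interaction call ended in 10 of 12 fits for invertase F, in 10 for PRB1-2, in 10 for Nramp1, in 8 for cinnamyl alcohol dehydrogenase 6, in 8 for prolyl 4-hydroxylase 6, in 8 for NRT1/PTR family 5.10, in 6 for bHLH47-like, in 6 for glycerate dehydrogenase, in 5 for acidic endochitinase and in 2 for Sobic.003G326400. The other 24 calls held in all 12 fits.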

How the results depend on the processing

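In roots labelled P deficiency the count of 1103 called genes was 1822 with DESeq2 and 646 with a limit of at least 2-fold, and 596 to 1452 with 1 library left out. The mock count of 338 was 862 with DESeq2, 176 with only the 6 libraries compared, 210 with the 2-fold limit and 66 to 743 with 1 library left out. The interaction count of 117 was 416 with DESeq2 and 58 to 180 with 1 library left out. The 224 called members of the gene lists were 343 with DESeq2 and 122 to 294 with 1 library left out. The cause of these moves was not tested, except that leaving out a library leaves fewer samples. RLE size factors and total counts kept each of these counts within 1.5 times, as did no filter and the stricter filter for the counts over all genes, where alone they were run. Total counts shifted the median change by -0.07 relative to TMM.

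With the replicate number as a block, 855 genes were called in P deficiency, 233 in mock, 71 for the interaction and 178 in the lists. The numbers do not pair the samples: deviations of libraries with the same number correlated at -0.541 to -0.158 between the days, and those with different numbers at -0.225 to 0.599, and none of the 6 libraries correlated best with its own number.

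Of the 151 genes singled out by the rule or later that had a called change, 115 kept their call under every setting run, 35 lost it without at least 1 library, and none changed direction. Among the genes described, other settings also ended calls: only the 6 libraries compared for MYBS3, TIFY 6b, cellulose synthase subunit 9, gibberellin 2-beta-dioxygenase 8, ribosomal protein P0, Sobic.010G022400, phospholipase D alpha 2 and SPX domain-containing protein 1, total counts for abscisic acid-insensitive 5, DESeq2 for zingiberene synthase and SPX domain-containing protein 1, and RLE size factors and either filter for SPX domain-containing protein 1 and low affinity sulfate transporter 3. The block ended those of TIFY 6b, abscisic acid-insensitive 5, low affinity sulfate transporter 3, SPX domain-containing protein 1, cellulose synthase subunit 9, Sobic.010G022400 and Sobic.005G122800. Without replicate 1 of day 4 the log2 fold change of phospholipase D alpha 1 (Sobic.008G183400) was 2.68, and without replicate 2 of day 7 that of zingiberene synthase (Sobic.007G055500) was -3.90. Depth limits levels near the limit for a count of 0, and 3 libraries per group limit the test.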

Other observations

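Several genes of plastids and of cyanogenic glucosides, chosen after their values were seen, also differed between the days by edgeR's test. Chlorophyllide a oxygenase (Sobic.003G435800), which makes chlorophyll b, averaged 191 CPM on day 7, against 21.6 CPM on day 4 (log2FC 3.14, adjusted p = 5.5e-05), with 10.9 CPM on day 7, against 3.07 CPM on day 4 in mock roots. Summed levels of green tissue markers were 15.3 to 19.1 CPM on day 7 and 11.6 to 13.3 CPM on day 4, and their part in this result was not tested. A plastid-lipid-associated protein (Sobic.003G241900) averaged 1413 CPM on day 7, against 228 CPM on day 4 (log2FC 2.63, adjusted p = 0.00016), and a protein described as conserved in the green lineage (Sobic.001G329400) averaged 505 CPM on day 7, against 94.97 CPM on day 4 (log2FC 2.41, adjusted p = 0.0026). P-(S)-hydroxymandelonitrile lyase (Sobic.004G335500), which releases cyanide from the aglycone of dhurrin in sorghum, averaged 13.3 CPM on day 7, against 1.77 CPM on day 4 (log2FC 2.90, adjusted p = 0.0038), with 12.7 CPM on day 7, against 2.85 CPM on day 4 in mock roots. The membrane protein STAR2 (Sobic.009G023700), part of an aluminium tolerance transporter in rice, averaged 54.1 CPM on day 7, against 19.3 CPM on day 4 (log2FC 1.49, adjusted p = 0.00036), with 32.4 CPM on day 7, against 47.8 CPM on day 4 in mock roots and an interaction adjusted p of 0.0036.

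Among genes without a description, NewGene_1212, predicted by the authors, averaged 179 CPM on day 7, against 9.35 CPM on day 4 (log2FC 4.26, adjusted p = 1.6e-06), with 10.8 CPM on day 7, against 5.38 CPM on day 4 in mock roots (interaction adjusted p = 0.00075). Sobic.003G280200 was called in mock only, with 15.8 CPM on day 7, against 2.28 CPM on day 4 in mock roots and 0.862 CPM on day 7, against 1.24 CPM on day 4, in roots labelled P deficiency (interaction adjusted p = 0.0020).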
